A study of Mus musculus with 2 samples.

Results

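LSK cells are bone marrow cells with Sca-1 and c-kit but no mature lineage markers on their surface, and they include hematopoietic stem cells. The expression of 39 genes for glucose uptake, glycolysis, the pentose phosphate pathway and their control was examined in LSK cells of nondiabetic and diabetic mice. The genes were listed by their known function, and every non-control probe whose transcript identifier belongs to a listed gene was taken. This gave 57 probes among the 55661 on the array, and all 39 genes had at least 1. One array was hybridized with RNA of LSK cells from nondiabetic C57BL/6J mice and 1 with RNA of LSK cells from C57BL/6J mice made diabetic with streptozotocin (STZ), a toxin that destroys insulin-producing β cells. For each array the labels give 3 mice, female sex and 8.3 ng of total RNA, whereas the text of the study describes male mice. The age of these mice and the time since STZ are not given in the sources used here. The arrays were made to compare gene expression between STZ-induced diabetic and nondiabetic mice. With 1 array per group there is no replicate, so no difference was tested and none of the values below carries an error between mice.

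Glucose enters a cell through facilitative transporters of the Slc2a family and is trapped by hexokinases. Glycolysis then converts it to pyruvate, which is reduced to lactate or oxidized in mitochondria by pyruvate dehydrogenase, an enzyme that the Pdk kinases switch off. A side branch at glucose-6-phosphate, the pentose phosphate pathway, yields NADPH and ribose. Long-term hematopoietic stem cells are known for a reliance on glycolysis, with Pdk kinases among the genes that keep pyruvate from being oxidized in mitochondria.

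Intensity is the processed spot signal that the scanner software had corrected for background, given before scaling. Ratios are diabetic over nondiabetic on the log2 scale, after the 75th percentile of each array (intensities of 168 and 182) had been brought to the same level. Where the software marked a probe as well above background on just 1 of the arrays, the ratio is a bound, taken against the higher of its own intensity on the dim array and the lowest intensity well above background there (10.2 for nondiabetic and 10.1 for diabetic). A gene with several probes is represented by its brightest probe, and further probes are given beside it for the 39 genes and, for other genes described with a value, where they differ in sign or side of the 2-fold limit. The only repeat measurement is that of probes printed in several spots. On the 237 probes with at least 5 spots, the median SD of log2 ratios over repeat spots was 0.25 in the dimmest tertile of measured probes, 0.13 in the middle tertile and 0.07 in the brightest tertile. The error model of the scanner software put between 0.20 and 0.33 on the log2 ratio of a member probe measured on both arrays. Neither of these errors contains differences between mice, cell sorts or amplifications.

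Both genes of the positive gate were well above background on both arrays. Kit, which encodes c-kit, had intensities of 4635 on the nondiabetic and 4735 on the diabetic array, and Ly6a, which encodes Sca-1, had 475 and 701. Of 8 LSK and stem or progenitor markers, 1 was past 2-fold, Slamf1, which encodes the stem cell marker CD150, with 5.29, not well above background, and 28.7, at least 2.59-fold above nondiabetic LSK cells. The probes of Ms4a1, Cd8a, Cdh5 and Col1a1, markers of B, T, endothelial and stromal cells, were not well above background on either array. Other markers of these cells were. Among 4 B cell markers with a value, Cd79a was higher (39.3 and 121), among 5 T and NK cell markers Cd3g and Cd3d were lower, and among 3 stroma and endothelium markers Pecam1 was higher (162 and 936) and Col1a2 lower, each by more than 2-fold. The summed intensities of these lists were 217 and 301, 3601 and 2816, and 278 and 1009. Of the T and NK cell sums, 3291 and 2582 came from the brightest probe of Nkg7 (a log2 ratio of -0.47), whose further probe gave 0.87. Most of the stroma and endothelium sums came from Pecam1. The part of these markers in the results below was not tested. The share of non-control spots well above background was 62.7% for nondiabetic and 63.9% for diabetic LSK cells.

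Most of the 39 genes were expressed above background in LSK cells, and few differed by 2-fold between the arrays. Of the 57 probes, 51 (89.5%) were detected well above background in both groups, against 58.4% of all probes. A further 2 were so in nondiabetic LSK cells only and 4 in neither. By their brightest probe, 5 of 37 measured genes had ratios of 2-fold or more in favour of diabetic LSK cells (13.5%, against 11.0% of all 15192 genes), namely Slc2a4, Pfkfb3, Pfkfb4, Eno3 and Pdk2. Lower by 2-fold or more were 2, Slc2a8 and Pdk3 (5.41%, against 10.1% of all genes). Probe by probe, 6 of 53 were higher by 2-fold or more (11.3%, against 11.2% of all 37791 measured probes) and 2 lower (3.77%, against 11.2%). The shares of higher members are near the background, and those of lower members are below it. The part of probe brightness in these shares, described below, was not tested. The counts are therefore not read as a result about glycolysis, and the results below are those of single genes. The median log2 ratio was 0.05 over the 37 genes and 0.02 over all genes, and the median absolute log2 ratio was 0.38 and 0.44.

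**Figure D1:**
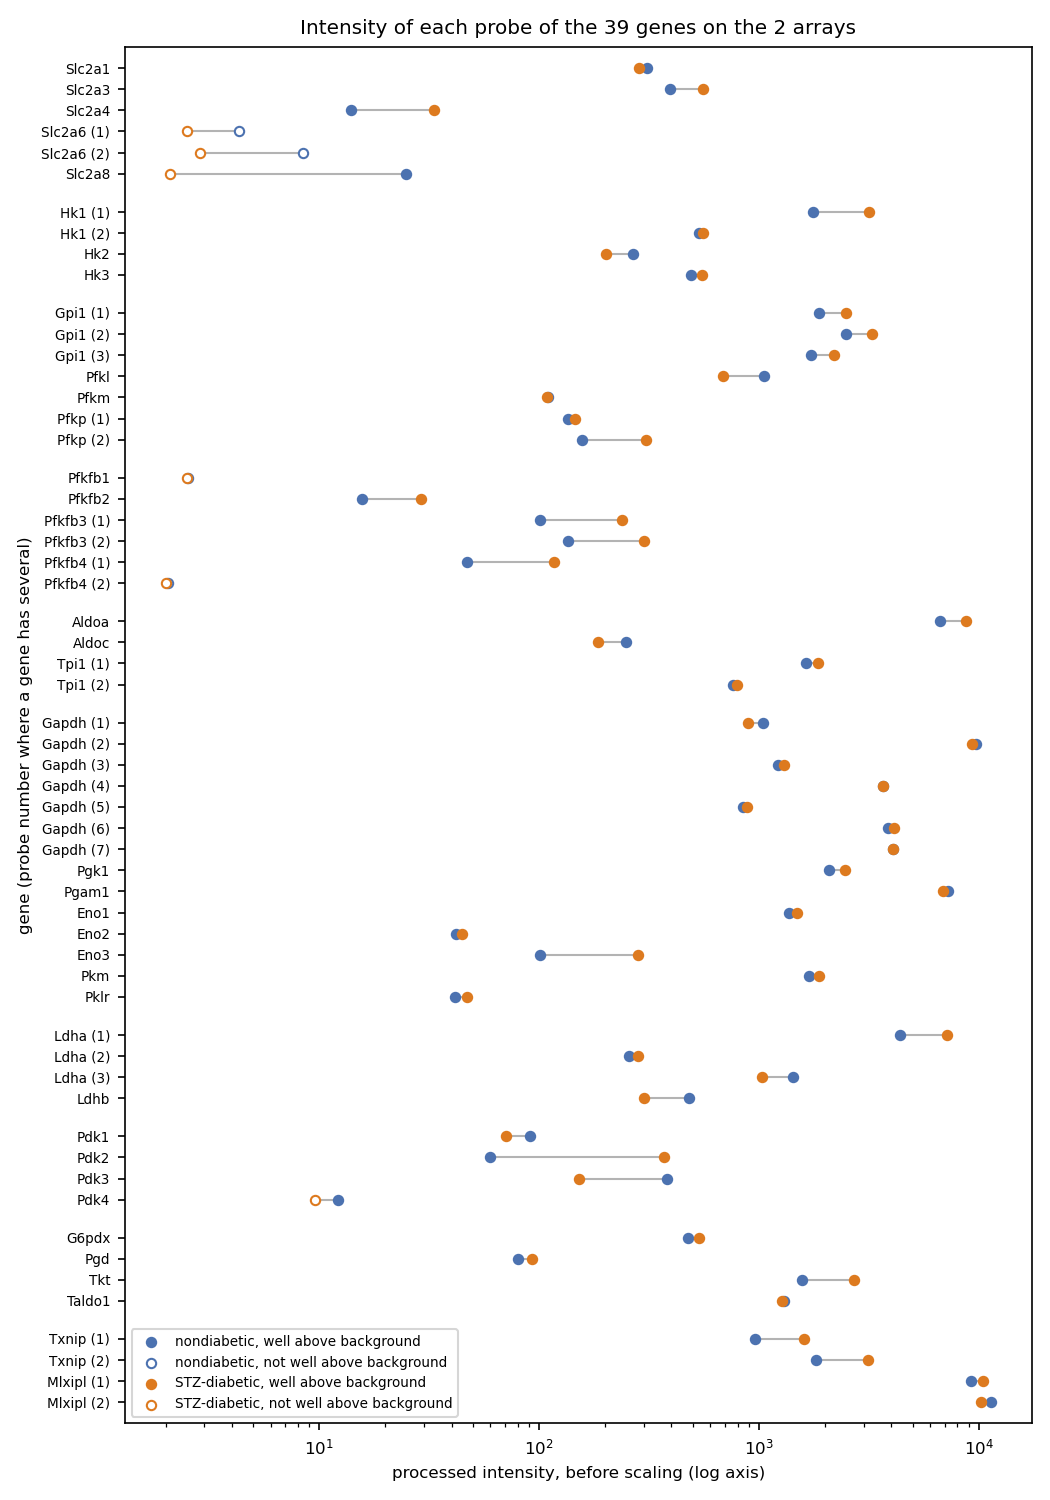
Processed intensity of each of the 57 probes (log axis) on the nondiabetic array (blue) and the diabetic array (orange), in blocks by role in the pathway. Open circles are spots not well above background, and positions of different probes are not comparable. The longest gaps between filled circles are those of Pdk2 (59.9 and 370.5), Eno3, Pdk3, Pfkfb4, Slc2a4 and Pfkfb3.

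The glucose transporters of LSK cells differed in both directions. Slc2a1 encodes GLUT1, the transporter of most blood cells, and gave an intensity of 309.9 on the nondiabetic and 284 on the diabetic array, a log2 ratio of -0.24. Slc2a3, which encodes the high-affinity transporter GLUT3, had 394 and 555, a log2 ratio of 0.38. Thus the probes of both broadly used transporters lay within 2-fold. Slc2a4 encodes GLUT4, the insulin-responsive transporter of muscle and fat, and its probe was printed repeatedly. Over 9 kept spots of its probe, the intensity was 10.7 at the lowest, 14.0 at the median and 18.3 at the highest in nondiabetic LSK cells, and 24.7, 33.6 and 45.0 in diabetic LSK cells. The spots of the arrays did not overlap. The mean log2 ratio over these spots was 1.14 ± 0.32 (SD over 9 spots of 1 array pair), with single spots between 0.77 and 1.81. In nondiabetic LSK cells the signal lay near the detection limit, and 8 of the 9 spots were marked as well above background there, against 9 of 9 in diabetic LSK cells. Spots of a probe share the same labelled RNA and do not stand for mice.

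**Figure D2:**
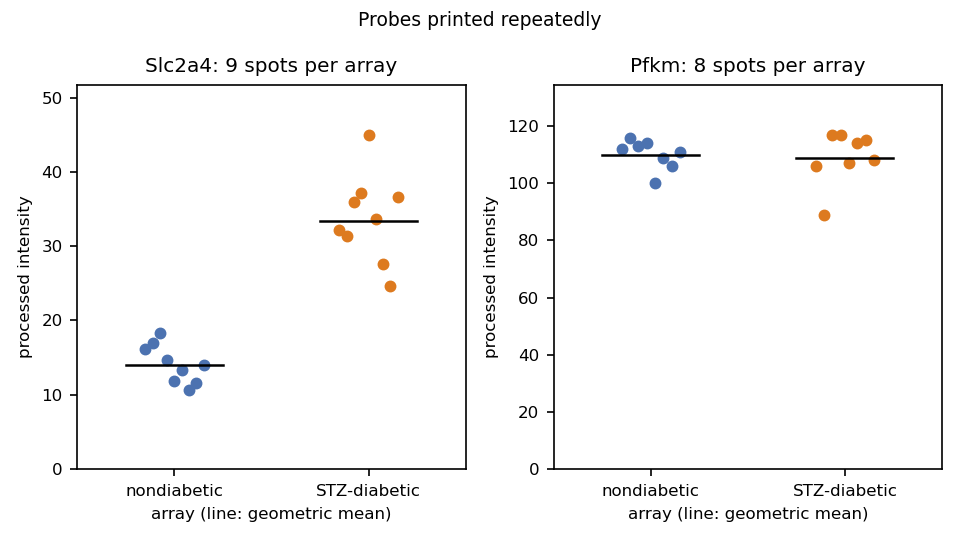
Processed intensity of single spots of the Slc2a4 probe (9 spots per array) and the Pfkm probe (8 spots per array), with the geometric mean as a line. All diabetic spots of Slc2a4 (24.7 to 45.0) lie above all nondiabetic spots (10.7 to 18.3), whereas those of Pfkm overlap.

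Slc2a8, which encodes the intracellular transporter GLUT8, had an intensity of 24.7 in nondiabetic LSK cells and 2.09, not well above background, in diabetic LSK cells. This puts it at least 2.66-fold below nondiabetic LSK cells. In a bulk RNA measurement such as this, fewer cells that express a gene and less of its RNA per cell cannot be told apart. Both probes of Slc2a6, a transporter of myeloid cells, were not well above background on either array. Their intensities were 4.32 and 8.42 in nondiabetic and 2.50 and 2.88 in diabetic LSK cells.

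The hexokinases, which phosphorylate glucose on entry, stayed within 2-fold. The brighter probe of Hk1 had intensities of 1753 on the nondiabetic and 3165 on the diabetic array, a log2 ratio of 0.74, while its second probe to the same transcript had 532 and 554, a log2 ratio of -0.06. The probes of Hk1 therefore gave different sizes. Hk2, the hexokinase most tied to growth and hypoxia, had 268 and 202, a log2 ratio of -0.52. Hk3, the hexokinase of myeloid cells, had 489 and 549.5, a log2 ratio of 0.05. Among 9 granulocyte and monocyte markers with a value, 1 was past 2-fold and lower (S100a8, with intensities of 52.2 and 20.4) and 0 were higher by as much. Their brightest probes summed to 44425 for nondiabetic and 43200.1 for diabetic LSK cells, of which 34686 and 35189 came from Itgam, and their median log2 ratio was -0.34. The further probes of Itgam (-1.30 and -1.12) and 1 further probe of Csf1r (-1.17) were past 2-fold and lower. The part of these markers in the value of Hk3 was not tested.

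At the next steps, the 3 probes of Gpi1, the isomerase that makes fructose-6-phosphate, agreed closely. Their log2 ratios lay between 0.24 and 0.28, with the brightest probe at 2479 on the nondiabetic and 3254 on the diabetic array. Phosphofructokinase commits the sugar to glycolysis and has subunits named for liver, muscle and platelets. Pfkl, the liver subunit, had 1052 and 687, a log2 ratio of -0.73. Pfkm, the muscle subunit, was read on 8 kept spots, with intensities from 100.1 through a median of 112 to 116 in nondiabetic and from 88.8 through 111 to 117 in diabetic LSK cells. The spots overlapped, and the mean log2 ratio after scaling was -0.14 ± 0.16 (SD over 8 spots). Single spots gave log2 ratios between -0.50 and -0.00, with 0 of 8 above 0. Pfkp, the platelet subunit, had 156 and 307 by its brighter probe, a log2 ratio of 0.86, and 136 and 146 by its other probe, a log2 ratio of -0.01. By the brighter probes, Pfkl was thus lower and Pfkp higher in diabetic LSK cells, each by less than 2-fold.

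The Pfkfb enzymes make and break fructose-2,6-bisphosphate, the strongest activator of phosphofructokinase, and the 3 that were measured all had more signal in diabetic LSK cells. Pfkfb3, the isoform with the highest kinase activity, was read by probes to different transcripts. The brighter one gave an intensity of 136 on the nondiabetic and 299 on the diabetic array, which is 2.03-fold higher after scaling, and the other had 100.4 and 238, which is 2.18-fold higher. Both probes of Pfkfb3 therefore lay just past 2-fold, with log2 ratios of 1.02 and 1.13. Pfkfb4 had 46.9 and 117, which is 2.30-fold higher, while its second probe to the same transcript was near background on both arrays (2.06 and 2.01). Pfkfb2, known from the heart, had 15.7 and 29.1, a log2 ratio of 0.77. Pfkfb1, the liver isoform, had 2.52 and 2.51, which is not above background.

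Promoter sequences from RefSeq on the build GRCm38.p6 are shown for Pdk2 and Pdk3, whose ratios measured on both arrays were largest. They are also shown for Pfkfb3 and Pfkfb4, related genes that both passed 2-fold, and for Txnip. Each window runs from 250 bases before to 50 bases after a transcription start, and 37 of the 39 genes had at least 1 window (59 in all). Slc2a3 and Slc2a4 had no entry. The windows were searched on both strands for ACGTG, the core that hypoxia-inducible factors and E-box factors share. CACGTG, the full E-box read by Myc and by the glucose-sensing Mlx proteins, holds this core on both strands. Capitals mark these letters. The core was found in 22 of the 59 windows (37.3%), against 19.6% of all 32851 windows, and the E-box in 6 (10.2%), against 7.15%. Windows of a gene can overlap and hold the same site, as happens for Aldoa. The windows with the core belonged to 18 of the 37 genes. A pair of exact E-boxes at the spacing of the classical carbohydrate response element was found in 0 of the 32851 windows. Pairs of inexact E-boxes were not searched for. Nor was GCGTG, another core that hypoxia-inducible factors read, so a window without ACGTG can still hold such a core. These are counts of letters and not of binding. The windows of Eno3 and Slc2a8, which were also past 2-fold, held neither core nor E-box and are not shown. Both windows of Pfkfb3 and the single window of Pfkfb4 are shown because their genes had log2 ratios above 1 side by side.
Pfkfb3, chr2:11502041-11502340, minus strand: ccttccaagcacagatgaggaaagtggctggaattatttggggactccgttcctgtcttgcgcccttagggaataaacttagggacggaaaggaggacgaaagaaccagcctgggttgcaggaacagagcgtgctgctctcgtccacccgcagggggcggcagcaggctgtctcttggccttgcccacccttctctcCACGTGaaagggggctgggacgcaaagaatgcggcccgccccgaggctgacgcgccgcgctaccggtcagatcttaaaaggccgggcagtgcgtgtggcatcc
Pfkfb3, chr2:11553880-11554179, minus strand: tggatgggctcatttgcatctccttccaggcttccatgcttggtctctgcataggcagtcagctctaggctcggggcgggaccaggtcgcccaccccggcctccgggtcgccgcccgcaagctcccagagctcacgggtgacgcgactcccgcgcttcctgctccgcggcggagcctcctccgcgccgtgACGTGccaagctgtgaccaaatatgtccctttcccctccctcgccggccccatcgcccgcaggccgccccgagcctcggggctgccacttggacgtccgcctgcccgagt
Pfkfb4, chr9:108991652-108991951, plus strand: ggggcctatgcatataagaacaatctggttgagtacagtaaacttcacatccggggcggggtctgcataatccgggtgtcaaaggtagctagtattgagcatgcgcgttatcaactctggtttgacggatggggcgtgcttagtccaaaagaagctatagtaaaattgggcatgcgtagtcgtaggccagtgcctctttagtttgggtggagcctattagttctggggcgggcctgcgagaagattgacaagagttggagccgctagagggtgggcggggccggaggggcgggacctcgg

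One window of Pfkfb3 held an E-box that began 53 bases before the start, and the other held a core that began 60 bases before it. The window of Pfkfb4 held neither ACGTG nor CACGTG, and other forms of the hypoxia core were not searched for.

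The aldolases and triose phosphate isomerase, which split the sugar into the triose phosphates, lay within 2-fold. Aldoa, the main aldolase of blood cells, had intensities of 6634 on the nondiabetic and 8739.6 on the diabetic array, a log2 ratio of 0.28. Aldoc, the brain aldolase, had 248 and 185, a log2 ratio of -0.54. The brighter probe of Tpi1 had 1638 and 1864, a log2 ratio of 0.07, and its other probe gave -0.05.

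The enzymes of lower glycolysis, from glyceraldehyde-3-phosphate to pyruvate, were nearly level between the arrays with the exception of Eno3. The 7 probes of Gapdh, often used as a reference gene, had log2 ratios between -0.34 and -0.02, and the brightest had intensities of 9696 on the nondiabetic and 9361 on the diabetic array. Gapdh has many near-identical processed copies in the mouse genome, so its probes are not certain to read 1 gene. Pgk1, which makes the first ATP of the pathway, had 2091 and 2473, a log2 ratio of 0.12. The mutase Pgam1 had 7275 and 6866, a log2 ratio of -0.20. Pkm, the pyruvate kinase of most tissues, had 1695 and 1879.9, a log2 ratio of 0.03. The enolases separated. Eno1, the general enolase, had 1364 and 1493, a log2 ratio of 0.01, and Eno2, the neuronal one, had 41.7 and 44.5, a log2 ratio of -0.02. Eno3, the muscle enolase, had 101 on the nondiabetic and 283 on the diabetic array, which is 2.57-fold higher. This rests on 1 probe printed once.

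Pklr, the pyruvate kinase of liver and red cells, had 41.4 and 47.1, a log2 ratio of 0.07. Beside it, 2 of 7 erythroid markers with a value were past 2-fold and higher, the globins Hba-a1 with intensities of 1984 and 4967 and Hbb-b1 with 102 and 225. The others lay within 2-fold by their brightest probes, with log2 ratios of -0.59 for Gata1, -0.30 for Klf1, -0.24 for Car1, -0.20 for Epor and 0.14 for Tfrc, and the median of the list was -0.20. A further probe of Tfrc gave 2.05. The list summed to 2803 for nondiabetic and 5883 for diabetic LSK cells, most of it from Hba-a1. The part of red cell RNA in any value of these arrays was not tested, and Pklr itself differed by less than the spot SD of its brightness class (0.25).

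**Figure D3:**
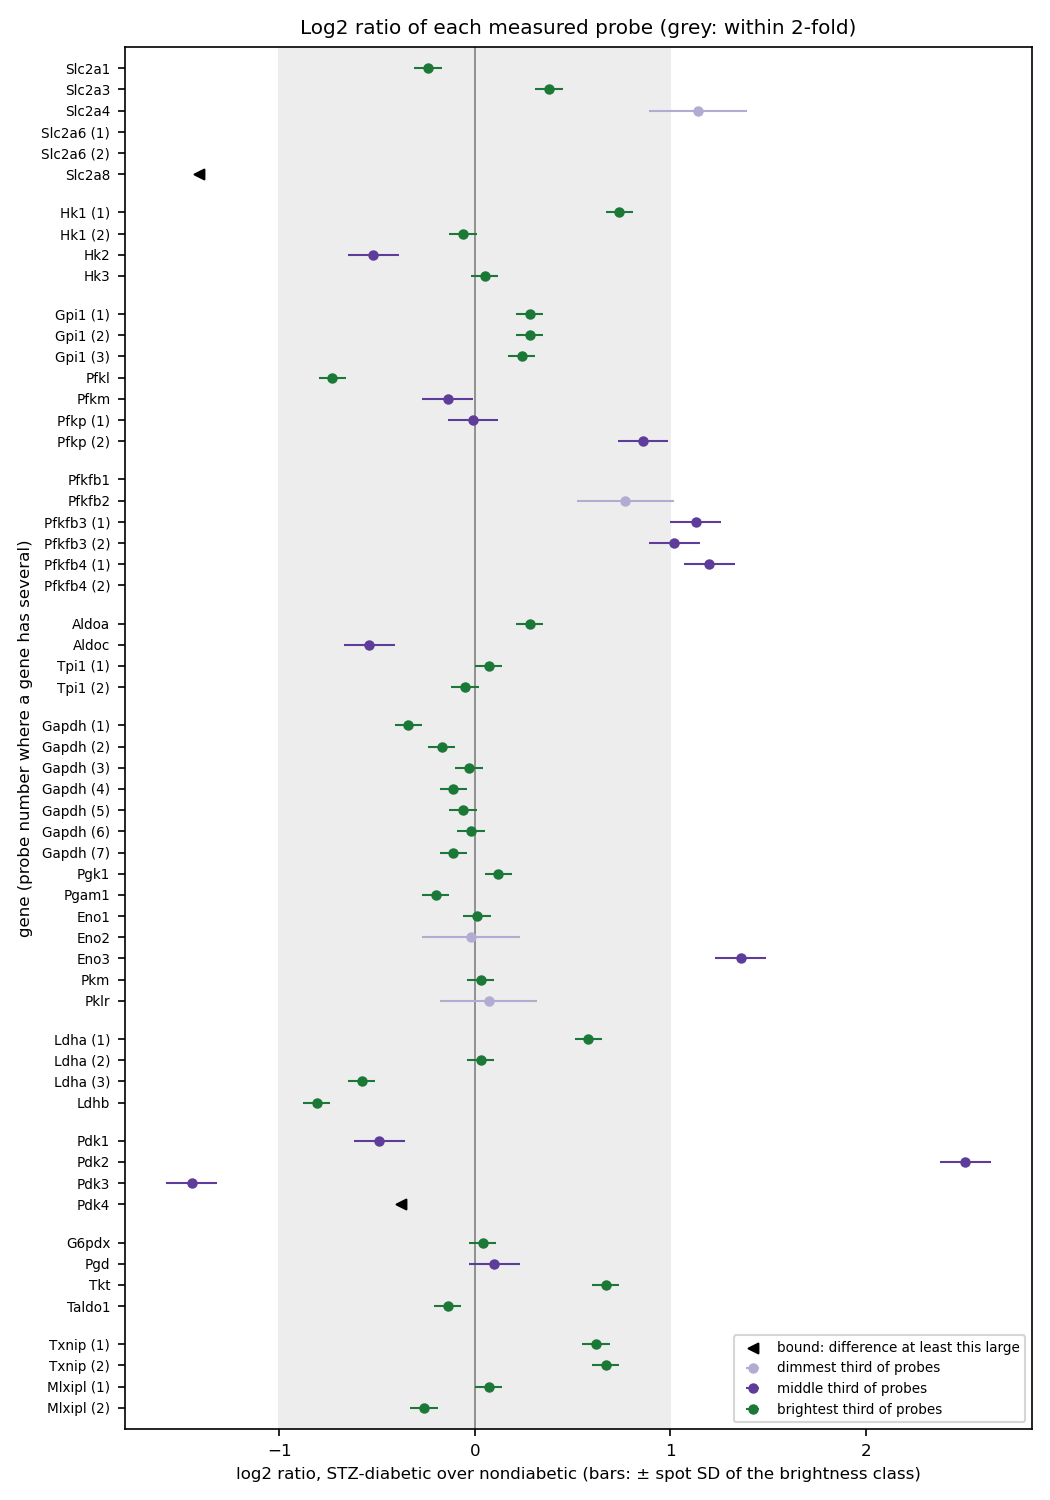
Log2 ratio of diabetic over nondiabetic LSK cells for each probe with a ratio (circles) or bound (triangles), in the same order as the intensities, with bars of ± 1 spot SD of the brightness class (0.25, 0.13 and 0.07). The grey band is within 2-fold, and Pdk2 (2.51) and Pdk3 (-1.45) lie farthest out among the ratios measured on both arrays.

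Lactate dehydrogenase converts pyruvate to lactate and back. Its subunits are Ldha, favoured in glycolytic cells, and Ldhb, favoured in oxidative cells. The 3 probes of Ldha, all to the same transcript, disagreed. The brightest had intensities of 4403 on the nondiabetic and 7148 on the diabetic array, a log2 ratio of 0.58. The next had 1428 and 1035, a log2 ratio of -0.58, and the dimmest had 255 and 283, a log2 ratio of 0.03. No direction can therefore be given for Ldha from these arrays. Ldhb had 482 and 299, a log2 ratio of -0.81, by a single probe.

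The largest ratios between 2 measured values were found among the pyruvate dehydrogenase kinases, and they went opposite ways. Pdk2, the most widely expressed of these kinases, gave an intensity of 59.9 on the nondiabetic and 370.5 on the diabetic array, which is 5.70-fold higher. Pdk3 had 383 and 152, which is 2.73-fold lower. Both differences were over 10 times the spot SD of probes of this brightness, and each rests on 1 probe printed once. The spot SD is a small yardstick, since 63.1% of all probes measured on both arrays differed by over 2 spot SD (60.8% of member probes). The software error of either log2 ratio was 0.21. Pdk1, a target of hypoxia-inducible factor 1, had 91.1 and 70.6, a log2 ratio of -0.49. Pdk4, the kinase that fasting and diabetes induce in muscle and heart, was at the detection limit, with 12.1 in nondiabetic LSK cells and 9.51, not well above background, in diabetic LSK cells. Its bound of 1.30-fold lower, a log2 ratio of -0.38, was smaller in size than the software error of this log2 ratio (0.45). Between nondiabetic and diabetic LSK cells, the kinase with a higher signal was thus Pdk2, and Pdk1 and Pdk3 had lower signals. No direction can be given for Pdk4.

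The promoter windows of Pdk2 and Pdk3 are shown because these genes differed most and in opposite directions. Of the 2 windows of Pdk2, the one with an E-box is shown.
Pdk2, chr11:95041322-95041621, minus strand: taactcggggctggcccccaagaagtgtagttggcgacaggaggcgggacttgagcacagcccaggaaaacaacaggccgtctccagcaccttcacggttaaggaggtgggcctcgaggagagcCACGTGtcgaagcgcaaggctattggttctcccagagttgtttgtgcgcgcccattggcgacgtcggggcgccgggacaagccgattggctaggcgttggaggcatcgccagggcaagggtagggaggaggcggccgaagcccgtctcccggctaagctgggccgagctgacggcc
Pdk3, chrX:93832101-93832400, minus strand: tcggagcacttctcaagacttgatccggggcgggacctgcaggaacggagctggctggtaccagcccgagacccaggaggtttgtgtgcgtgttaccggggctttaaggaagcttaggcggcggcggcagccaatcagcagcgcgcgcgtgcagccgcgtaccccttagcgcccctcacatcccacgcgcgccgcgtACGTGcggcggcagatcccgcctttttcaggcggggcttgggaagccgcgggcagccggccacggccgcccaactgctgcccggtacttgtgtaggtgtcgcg

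The E-box of Pdk2 began 126 bases before the start, and the core of Pdk3 began 53 bases before it. The other window of Pdk2 (chr11:95040826-95041125) held neither E-box nor core.

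In the pentose phosphate pathway, Tkt differed most. G6pdx, the first and rate-limiting enzyme of the branch, had intensities of 478 on the nondiabetic and 532 on the diabetic array, a log2 ratio of 0.04. Pgd, the second NADPH-yielding enzyme, had 80.1 and 93.2, a log2 ratio of 0.10. The oxidative branch was thus nearly level between the arrays. Tkt, the transketolase that links the branch back to glycolysis, had 1565 and 2704, which is 1.59-fold higher. Taldo1, the transaldolase, had 1295 and 1271, a log2 ratio of -0.14.

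Txnip and Mlxipl are the genes of the group that report on glucose itself. Txnip encodes thioredoxin-interacting protein, which limits glucose uptake and is known to be induced by glucose through Mlxipl (ChREBP) and its relative Mlxip (MondoA). The brighter probe of Txnip had intensities of 1826 on the nondiabetic and 3141 on the diabetic array, which is 1.59-fold higher, and the other had 961 and 1598, which is 1.53-fold higher. The probes agreed within the spot SD of bright probes, with log2 ratios of 0.67 and 0.62. The probes of Mlxipl disagreed in sign at small size. They had 11338 and 10286, a log2 ratio of -0.26, and 9187 and 10485, a log2 ratio of 0.07. Its partner Mlx had 17.7 and 28.1, a log2 ratio of 0.55, and Mlxip had 19.2 and 35.7 by its brighter probe, a log2 ratio of 0.78, and 15.9 and 42.2 by the other, which is 2.45-fold higher. The promoter window of Txnip is shown because Txnip is the classical glucose-induced gene of the group. It held neither ACGTG nor CACGTG. Inexact E-boxes were not searched for, so this does not show that the window lacks a carbohydrate response element.
Txnip, chr3:96557707-96558006, plus strand: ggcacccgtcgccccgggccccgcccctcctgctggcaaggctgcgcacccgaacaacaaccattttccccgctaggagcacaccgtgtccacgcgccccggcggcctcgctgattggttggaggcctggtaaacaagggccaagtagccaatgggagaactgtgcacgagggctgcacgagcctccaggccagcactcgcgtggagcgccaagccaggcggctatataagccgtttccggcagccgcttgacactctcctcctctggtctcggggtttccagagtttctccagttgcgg

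Member probes of the brightest tertile differed less between the arrays than those of the other tertiles, with no steady order over all of them. Of the 51 member probes measured on both arrays, 34 belonged to the brightest tertile of all such probes, and 0 of these passed 2-fold, against 7.37% of all probes in that tertile. The middle tertile held 13 member probes, of which 6 passed 2-fold, against 24.0% of all probes in it. The dimmest tertile held 4, of which 1 passed, against 22.9%. The median absolute log2 ratio of members was 0.18 in the brightest, 0.86 in the middle and 0.42 in the dimmest tertile, compared with 0.26, 0.48 and 0.47 over all probes. The core enzymes (Aldoa, Tpi1, Gapdh, Pgk1, Pgam1, Eno1, Pkm and Gpi1) lay in the brightest tertile. Pfkfb3, Pfkfb4, Eno3, Pdk2 and Pdk3 lay in the middle tertile, and Slc2a4 in the dimmest. This split was made after the values were seen.

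**Figure D4:**
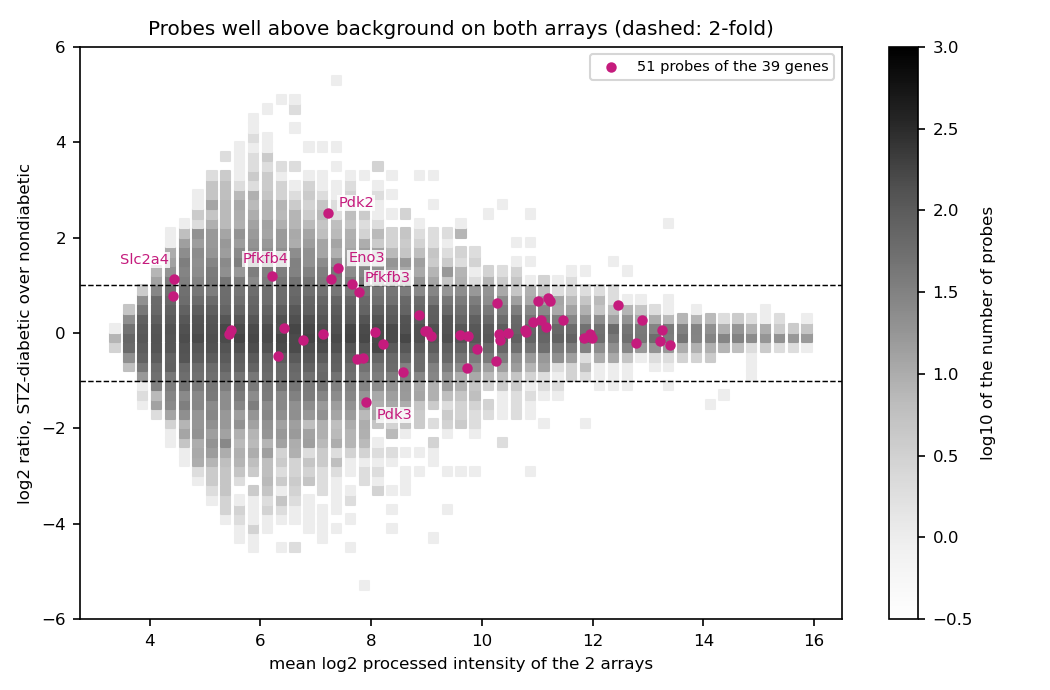
Log2 ratio of diabetic over nondiabetic LSK cells against the mean log2 intensity for all 32506 probes that were detected in both groups (grey squares, shaded by the number of probes) and for the 51 member probes among them (magenta). Bright members to the right stay within the dashed 2-fold lines, and the named members past them lie at low and middle intensities.

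Where a gene had several probes measured on both arrays, they give a check on the gene's value that does not rest on 1 spot. This held for 9 genes. In 4 of them, Gapdh, Gpi1, Pfkfb3 and Txnip, all such probes had the same sign (44.4%, against 51.1% of 3245 genes on the array). In Tpi1 and Mlxipl the signs differed over a range of 0.12 and 0.33, in Hk1 and Pfkp over 0.79 and 0.87, and in Ldha over 1.16. The median range between probes of a gene was 0.32 for the 9 genes and 0.66 for all 3245. Except for Pfkfb3 and Pfkp, the probes of the 9 genes lay in the brightest tertile. The median absolute log2 ratio of all probes was 0.26 there, against 0.48 in the middle tertile. The part of brightness in the range between probes was not tested. Of the 7 genes past 2-fold, Pfkfb3 alone had a second measured probe.

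The differences around pyruvate were next set beside other genes of glucose metabolism. Of 68 such genes, 66 were on the array and 56 had a ratio or bound, with 6 higher by 2-fold or more in diabetic LSK cells (10.7%, against 11.0% of all genes), 8 lower (14.3%, against 10.1%) and a median log2 ratio of 0.06. Among 13 genes for monocarboxylate transport and pyruvate entry into mitochondria, 3 were higher and 1 lower (against 11.0% and 10.1% of all genes). Slc16a3, which encodes the lactate exporter MCT4, had intensities of 21.8 on the nondiabetic and 104 on the diabetic array, which is 4.39-fold higher, and its second probe had 18.3 and 96.7, which is 4.86-fold higher. Both probes of Slc16a3 therefore gave the same direction and nearly the same size. Pdhx, the component that binds dihydrolipoamide dehydrogenase into the pyruvate dehydrogenase complex, had 59.1 and 7.29, not well above background in diabetic LSK cells, and was at least 6.38-fold lower. The catalytic subunits had brightest probes within 2-fold, with a log2 ratio of -0.22 for Pdha1 and 0.33 for Pdhb, whose further probe gave -0.10. The phosphatases that oppose the Pdk kinases had more signal in diabetic LSK cells by their brightest probes, Pdp1 with 111 and 278 (a log2 ratio of 1.21) and Pdp2 with 165 and 335 (0.91). Further probes gave 0.60 and -0.19 for Pdp1, which disagree in sign, and 1.58 for Pdp2. Mpc1, a subunit of the mitochondrial pyruvate carrier, had 87.9 and 191 by its brightest probe, at 2-fold after scaling, and a log2 ratio of -0.73 by the other.

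Of 5 further transporters on the array, 3 had a value, of which 2 were lower and 0 higher (against 10.1% and 11.0% of all genes). Slc2a9, which encodes a urate transporter, had 416 and 125, which is 3.61-fold lower in diabetic LSK cells. Slc2a10 had 46.1 and 2.98, and was at least 4.97-fold lower. Slc2a2, which encodes GLUT2, the transporter by which STZ enters β cells, stayed below the detection mark on both arrays (2.18 and 5.37). Of 15 other genes of glycolysis and the pentose phosphate pathway with a value, 2 were higher and 2 lower. The shares over all genes were 11.0% and 10.1%. H6pd, the glucose-6-phosphate dehydrogenase of the endoplasmic reticulum, had 136 and 360.1, which is 2.44-fold higher, and Pgm1 had 81.3 and 366, which is 4.14-fold higher. Adpgk, an ADP-dependent glucokinase, had 179 and 51.5, which is 3.77-fold lower, while its further probe (7.82, not well above background, and 14.1) was at least 1.28-fold higher. Ldhd, the D-lactate dehydrogenase, had 86.2 and 6.45, at least 9.29-fold lower. In gluconeogenesis and glycogen metabolism, 1 of 12 genes was lower and 0 were higher (against 10.1% and 11.0% of all genes). The lower gene, Ugp2, makes UDP-glucose for glycogen and had 519 and 256, a log2 ratio of -1.14. The further probe of Ugp2 gave 0.64. Each of these genes is named by its brightest probe.

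Among 13 regulators, Egln3 was past 2-fold and higher, and Arrdc3 and Egln1 were past it and lower. Over all genes, 11.0% were higher and 10.1% lower by as much. The probes of Egln3, a prolyl hydroxylase that hypoxia induces, went opposite ways, with 51.4 and 205 (a log2 ratio of 1.88) by the brightest and 98.9 and 54.8 (-0.97) by the other. Hif1a, the oxygen-regulated factor that drives glycolytic genes, had 109 and 167, a log2 ratio of 0.50, and Myc had 1412 and 1106, a log2 ratio of -0.47. Arrdc4, the arrestin-like gene that glucose induces together with Txnip, had a log2 ratio of 0.57 over 9 spots and 1.16 by a further probe (18.3 and 44.4). Arrdc3 had 84.1 and 16.5, which is 5.52-fold lower. Arrdc2, a further relative, had log2 ratios of 0.27 by its brightest probe and 0.40 by the other. Of the listed Txnip relatives, Arrdc4 and Arrdc2 thus had more signal in diabetic LSK cells and Arrdc3 less.

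Of the 7 genes past 2-fold, Pdk2 (1.79) and Pdk3 (-1.23) stayed past it under a normexp background correction that adds an offset of 50 to each intensity, and Slc2a4, Slc2a8, Pfkfb3, Pfkfb4 and Eno3 came within 2-fold.

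**Figure D5:**
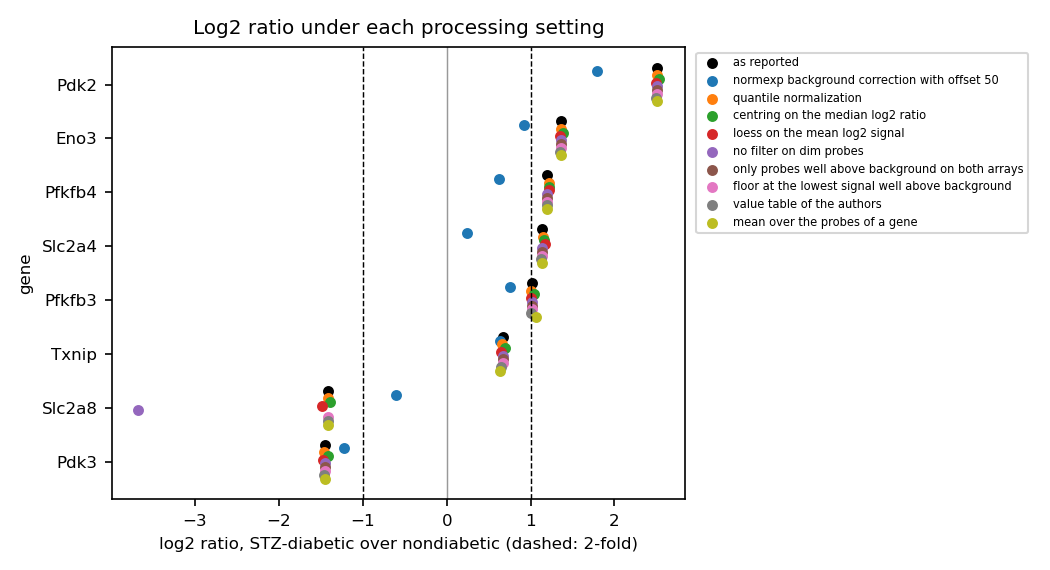
Log2 ratio of the 7 genes past 2-fold and of Txnip as reported (black) and under each of 9 other processing settings (colours), with 2-fold as dashed lines. Settings other than normexp keep each point on its side of the line, with Pfkfb3 at the line and Slc2a8 without a value in 1 setting, and normexp draws Slc2a4 (0.24), Pfkfb4 (0.62), Pfkfb3 (0.76), Eno3 (0.92) and Slc2a8 (-0.60) inside it.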

How the data were processed

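RNA of LSK cells was amplified to cDNA, labelled with Cy3 and hybridized to 2 Agilent 1-colour arrays. The authors deposited scanner files from Feature Extraction 11.5.1.1 (Agilent), whose intensities were background-subtracted within each array and not normalized between arrays, and a table of processed intensity values. That table equalled the scanner intensities times 1 constant per array. Flags for outliers and for signal well above background came, as deposited, from the same software.

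Intensities were taken to log2 and the 75th percentile over the 59305 non-control spots was subtracted. Spots flagged as non-uniform or population outliers in either scan were dropped (314), and spots of a probe were averaged. Transcript identifiers, without versions, were matched to a RefSeq table of GRCm38.p6, which named 28319 probes. The array grid refers to mm9, so no coordinates of probes are given. Probe sequences were not used here. The members, lists, motifs and the 2-fold limit were chosen with earlier results of these data known. All members are named, and other genes where they pass 2-fold or bear on a member. One marker gene is not reported here.

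No test was possible with 1 array per group. Of 10 alternatives, 9 were run: normexp on median spot and background signal (offset 50), quantile normalization, median centring, loess, no detection filter, detection on both arrays, a floor, the deposited table and the mean over probes. The steps were tested on simulated data. Python 3.11.15 (numpy 2.4.6, pandas 2.3.3, matplotlib 3.10.9) and R 4.3.3 with limma 3.58.1 were used.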

Additional observations from a re-analysis of the deposited data

How the results depend on the processing

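No paired analysis was possible because nondiabetic and diabetic mice have a single array each, and for the same reason no replicate could be left out. The alternative of naming probes by a gene name column was not run, because the columns used here hold none. Under normexp, member probes at least 2-fold higher and lower in diabetic LSK cells numbered 1 and 1 (6 and 2 before), member genes 1 and 1 (5 and 2 before), and related genes 3 and 3 (6 and 8 before). Pdk2 (1.79) and Pdk3 (-1.23) were those that stayed past 2-fold. Normexp adds 50 to every intensity, which by construction draws ratios of dim probes towards 0. When detection in both groups was required, which removes bounds, member probes and genes at least 2-fold lower numbered 1 each, since Slc2a8 has a bound, and related genes at least 2-fold lower numbered 4. With no filter on dim probes, Slc2a6 became the third member gene at least 2-fold lower. Under the other 6 settings all 7 member genes past 2-fold stayed so, in the same direction. The median log2 ratio over member genes lay between 0.01 and 0.07 in all 9 settings. None of the 7 genes changed sign in any setting. Signal over background limits Slc2a4, Slc2a6, Slc2a8, Pfkfb1, Pfkfb2 and Pdk4 most.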

Other observations

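Some related genes that lay within 2-fold by their brightest probe had a further probe past it. Gys1, the glycogen synthase of most tissues, had intensities of 424 and 265 by its brightest probe, a log2 ratio of -0.79, and 74.0 and 6.26 by the other, at least 7.98-fold lower. Epas1, which encodes hypoxia-inducible factor 2α, had 3986 and 3878 by its brightest probe, a log2 ratio of -0.16, and 20.6 and 2.26 by another, at least 2.23-fold lower. Slc16a7, which encodes the monocarboxylate transporter MCT2, had log2 ratios of -0.27 and -0.41 by its brighter probes and 1.03 by the dimmest.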
